A study of Mus musculus with 72 samples.

Results

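The sizes of reporter clones were compared between 2 parallel cultures of each of 6 pools of mouse embryonic stem cells. A clone was here 1 barcoded reporter integration, and its size was its share of the pool's DNA barcode reads, in percent. All integrations listed for the 6 pools were taken, 17857 of 17857, with DNA read counts from the first and from the second culture. The pools held 2725 (mPGK-A), 3176 (mPGK-B), 2518 (mPGK-C), 3165 (mPGK-D), 3166 (mPGK-E) and 3107 clones (mPGK-F).

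The study asked how the surroundings of an insertion alter the output of a reporter that is otherwise the same. The cells were of the EBRTcH3 line, in which the endogenous Rosa26 promoter drives a tetracycline-controlled transactivator, and every pool shared that background. Each reporter carried the promoter of the mouse phosphoglycerate kinase gene (mPGK) and a random barcode, and it was inserted by the piggyBac transposase after transfection. Cells were kept with leukemia inhibitory factor, the MEK inhibitor PD0325901 and the GSK-3 inhibitor CHIR99021. All pools came from the sorted fraction with low eGFP, which was grown for 5 days. Small pools were then taken, grown for 7 days, and divided into 2 cultures that grew apart for 7 more days. Barcodes were counted from genomic DNA and from RNA of each culture, each in 2 PCRs, in 24 DNA and 24 RNA libraries, and a further 24 libraries mapped the integration sites. No pool received another treatment, so the cultures differ only in having been grown and processed apart. They are technical replicates of a pool, and p-values over the 6 pools measure the spread between pools.

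A barcode that is copied with the genome marks all descendants of the cell in which the reporter landed, so the read share of a barcode follows how many cells carry it. When a pool is divided, each culture receives a sample of the cells of every clone, and small clones can then gain or lose share by chance, which is called clonal drift. Differences in growth rate between clones would also change shares. A cell can take up several piggyBac reporters, so several barcodes can mark 1 clone of cells, and which barcodes share cells cannot be told from these counts.

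The largest clone of each pool and, among clones above the pool's median share, the clone whose share changed most between the cultures are shown by their barcodes, 5′ to 3′, since the barcode is the sequence that was counted. No letter is set in capitals because no stretch of a barcode is singled out. Positions are those of mm9 as deposited, and which gene lies there was not analysed here.
mPGK-A largest, chromosome 2, position 17664393, + strand: aagtaatcccaactac
mPGK-B largest, chromosome 2, position 45646603, + strand: attcatgaaagccatt
mPGK-C largest, chromosome 7, position 82864234, - strand: cccaaacttgggtctt
mPGK-D largest, chromosome 1, position 75591906, - strand: ctaaaacccttggact
mPGK-E largest, chromosome 11, position 55561974, - strand: tggcttttacaattta
mPGK-F largest, chromosome 15, position 73728336, - strand: tacaccccagatcatt
mPGK-A most changed, chromosome 3, position 129382777, - strand: agccatctaaaaattac
mPGK-B most changed, chromosome 15, position 9258155, + strand: aggaaacggatgtact
mPGK-C most changed, chromosome 7, position 137834253, - strand: gcggcagggtgcatgg
mPGK-D most changed, chromosome X, position 159691364, + strand: cagccatgggatgcag
mPGK-E most changed, chromosome 15, position 88542555, + strand: cgccatgtcggaaccg
mPGK-F most changed, chromosome 10, position 19938673, + strand: gcaacctggtaatagg

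The listed barcodes had 3386477 to 3693449 DNA reads and 2880244 to 3508366 RNA reads per pool and culture. The median clone had 1670 DNA reads over both cultures, and the lowest DNA count in a culture was 18. Clones that the list does not hold were not analysed here, so the lower end of the size distribution is that of the list.

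Clone sizes spanned a wide range in every pool. The median share, averaged over both cultures, lay between 0.0204% in mPGK-B and 0.0256% in mPGK-F, with a mean of 0.0236 ± 0.00206% (SD, n = 6 pools). The clone at the 95th percentile was 17.5-fold (mPGK-F) to 24.3-fold (mPGK-A) larger than the clone at the 5th percentile. The largest 10% of clones held 33.0 ± 2.98% of the DNA reads of a pool, from 30.2% in mPGK-D to 38.3% in mPGK-C. The largest 1%, 25 to 31 clones per pool, held 5.03% (mPGK-D) to 9.08% (mPGK-C).

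The inverse Simpson number, which is the number of equally large clones that would give the same evenness, was 1492 ± 341 (SD, n = 6 pools). It was 1300 in mPGK-A, 1651 in mPGK-B, 882 in mPGK-C, 1782 in mPGK-D, 1676 in mPGK-E and 1659 in mPGK-F. The listed clones outnumbered it 1.78-fold in mPGK-D and 2.85-fold in mPGK-C. The pool with the fewest clones was thus also the most uneven, while the other 5 pools lay between 1.78-fold and 2.10-fold.

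The outlines of the size distributions were alike in both cultures of a pool, though not bin by bin. In bins of 0.25 log2 units, the fullest bin was the same in both cultures in mPGK-A, mPGK-B, mPGK-C and mPGK-D, and not in mPGK-E and mPGK-F. In mPGK-A, 227 clones of culture 1 and 225 of culture 2 lay in the fullest bin, between 0.0186% and 0.0221%. The count fell to 140 and 150 clones between 0.0312% and 0.0372%, and rose again to 181 and 174 clones between 0.0442% and 0.0526%. In mPGK-C, culture 1 had 192 clones in the fullest bin, 144 in the bin from 0.0312% to 0.0372%, and 182 in the next bin up. Culture 2 of mPGK-C did not have its dip in the same place: it had 200 clones in the fullest bin, 155 in the bin from 0.0263% to 0.0312% and already 184 in the bin from 0.0312% to 0.0372%. In mPGK-D the fullest bin, from 0.0263% to 0.0312%, held 284 clones in culture 1 and 271 in culture 2. The highest counts of any pool were in mPGK-F, with 298 clones of culture 1 between 0.0372% and 0.0442% and 302 of culture 2 in the bin just below. Lesser rises were not limited to mPGK-A and mPGK-C. In culture 2 of mPGK-B the count fell from 222 in the fullest bin to 192, and rose to 207 in the next bin up. In mPGK-F, culture 1 had 200 clones between 0.0110% and 0.0131% and 137 in the next bin up, while culture 2 had 157 and 186. These peaks were picked after their counts were seen and were not tested.

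**Figure D1:**
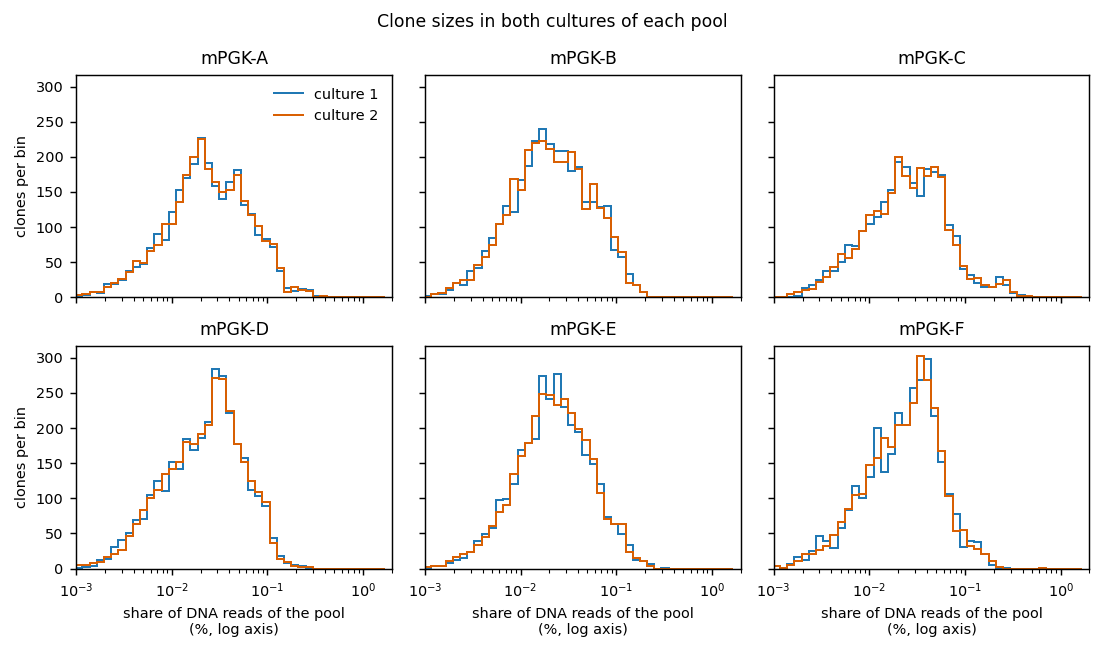
Number of clones per bin of 0.25 log2 units (vertical axis) against the share of the pool's DNA reads in percent (horizontal log axis), with 1 panel per pool and 1 outline per culture. The outlines of the cultures lie close together apart from single bins, with the highest peak in mPGK-F. More than 1 peak is seen in mPGK-A and mPGK-C, and lesser rises are seen in other pools.

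The largest clones were far apart in size between pools. In mPGK-C the clone on chromosome 7 had 52349 DNA reads in culture 1 and 44845 in culture 2, which are shares of 1.47% and 1.23%. Its mean share of 1.35% was 53.5-fold the median clone of the pool and 2.37-fold the next largest clone. In mPGK-F the clone on chromosome 15 had 21519 and 24686 DNA reads, a mean share of 0.633%, and was 2.55-fold larger than the next one. In the other 4 pools the largest clone held 0.263% to 0.389% and was at most 1.19-fold larger than the next.

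None of the largest clones moved far between the cultures. Their log2 changes of DNA share, culture 2 over culture 1, were -0.20 (mPGK-A), 0.14 (mPGK-B), -0.26 (mPGK-C), -0.07 (mPGK-D), -0.37 (mPGK-E) and 0.16 (mPGK-F), so the widest was a 1.30-fold decrease. Large clones also kept their rank in part. Of the 25 largest clones of culture 1, 22 were among the 25 largest of culture 2 in mPGK-A, 18 in mPGK-B, 16 in mPGK-C, 20 in mPGK-D, 21 in mPGK-E and 19 in mPGK-F.

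The reporters of the largest clones ranged from no RNA reads to about average output. The largest clone of mPGK-D had 10303 and 10132 DNA reads and was listed with 0 RNA reads in both cultures. The largest clone of mPGK-B had 8741 and 9994 DNA reads, with 0 RNA reads in culture 1 and 1 in culture 2. The largest clone of mPGK-C had 16 and 33 RNA reads. The largest clone of mPGK-E had 108 and 248 RNA reads beside 11340 and 8725 DNA reads, a ratio 20.8-fold below the pool median.

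Only the largest clones of mPGK-A and mPGK-F, with 7158 and 8130 and with 10008 and 12153 RNA reads, lay near the median ratio of their pools. Their ratios were 1.67-fold and 1.25-fold above it. The RNA counts thus placed 4 of these 6 clones below their pool's median ratio and 2 above it.

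Most clones held nearly the same share in both cultures. The rank correlation of shares across the clones of a pool was 0.919 (mPGK-E) to 0.943 (mPGK-A), over 2518 to 3176 clones that share the same pair of DNA libraries. The median absolute change was 0.30 ± 0.02 log2 units (SD, n = 6 pools), a 1.23-fold difference. The distribution of changes was centred, with pool medians between -0.0013 and 0.0067.

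The SD of the log2 change over clones was 0.52 in mPGK-A, 0.57 in mPGK-B, 0.56 in mPGK-C, 0.55 in mPGK-D, 0.56 in mPGK-E and 0.53 in mPGK-F, with a mean of 0.55 ± 0.02 (SD, n = 6 pools). Read counting alone would give an SD of 0.088 to 0.095 at these depths. The observed SD was 5.61-fold to 6.43-fold larger, and counting made up 2.80 ± 0.260% of the variance. Cell sampling at the split, growth, DNA isolation and PCR all lie within the rest, and they cannot be told apart from the DNA counts of 1 pair of cultures. PCR reads carried no molecular tags, so counting error is a lower limit of the technical error.

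A change of at least 2-fold was used to count changed clones. Over all pools 636 clones (3.56%) were at least 2-fold higher in culture 2 and 657 (3.68%) at least 2-fold lower, together 1293 clones or 7.24%. In the pools these were 170 clones in mPGK-A (6.24%), 258 in mPGK-B (8.12%), 195 in mPGK-C (7.74%), 225 in mPGK-D (7.11%), 240 in mPGK-E (7.58%) and 205 in mPGK-F (6.60%). Gains and losses were near balance in each pool, from 114 higher and 91 lower in mPGK-F to 121 higher and 137 lower in mPGK-B. Each culture gave 1 DNA count per clone, so this count rests on no replicate and no clone was tested from DNA alone. It fell to 828 when the lowest 10% of clones of each pool were left out and rose to 4089 with a limit of 1.5-fold.

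Small clones changed more. In the smallest size decile of each pool, with a median share of 0.00478%, the SD of the change was 0.91 ± 0.03, and in the largest decile, with a median share of 0.0971%, it was 0.24 ± 0.01 (SD, n = 6 pools). Among the smallest decile 467 of 1788 clones (26.1%) changed at least 2-fold, and the share fell in every decile above it. It was 18.3%, 11.9% and 8.40% in the next 3 deciles and 3.19% in decile 5. Among the largest decile it was 0 of 1782, which allows a share of up to 0.168% if clones are counted as independent, although those of a pool share their libraries. The rank correlation of the absolute change with clone size was -0.388 ± 0.0279 over pools. It was negative in 6 of 6 (exact sign-flip permutation test over pools, two-sided, p = 0.03125, the smallest that 6 pools can give). Read counting alone gives a wider change in small clones, an SD of 0.18 in the smallest decile and 0.034 in the largest. The negative sign was thus given in advance, and the p is no separate support for it.

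The SD exceeded that of read counting in every decile, by 5.17-fold in the smallest and by 6.91-fold in the largest. The variance beyond counting fell nearly in proportion to clone size, with an exponent of 0.892 ± 0.0215 on log scales. When it was fitted as a part inversely proportional to the share plus a constant, the first part equalled that of drawing 103874 ± 8266 barcode molecules per culture, from 94242 in mPGK-E to 114277 in mPGK-F. That is a mean of 35.2 ± 4.13 molecules per listed clone. The constant part was an SD of 0.13 ± 0.01 log2 units. The fit is a description of the spread and does not say at which step molecules or cells were few.

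**Figure D2:**
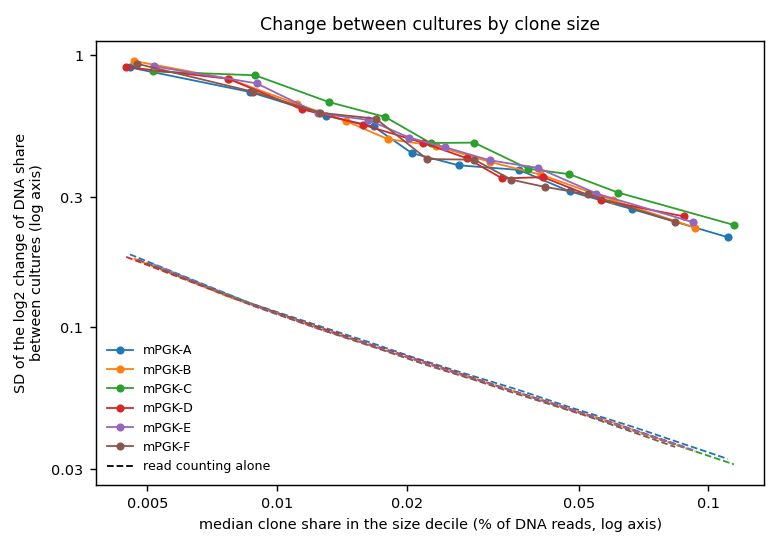
SD over clones of the log2 change of DNA share between the cultures (vertical log axis) against the median share of each size decile in percent of DNA reads (horizontal log axis), 1 solid line per pool, with the SD from read counting alone as dashed lines. All 6 pools fall from about 0.9 in the smallest decile to 0.21 to 0.26 in the largest, above the dashed lines throughout.

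The most changed clones among those above the median share lay close to the median in size, at 1.02-fold to 1.35-fold of it. The way they were chosen favours this, since the change was wider in smaller clones. In mPGK-B the clone on chromosome 15 had 1354 DNA reads in culture 1 and 389 in culture 2, a log2 change of -1.85. In mPGK-C the clone on chromosome 7 at position 137834253 went from 527 to 1681 reads, a change of 1.64. In mPGK-F the clone on chromosome 10 went from 627 to 1906 reads, a change of 1.57. Read counts of this size differ far beyond counting error, in either direction.

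In mPGK-D the clone on chromosome X went from 1293 to 490 reads, a change of -1.44, and in mPGK-A the clone on chromosome 3 went from 1351 to 522, a change of -1.42. The clone on chromosome 15 of mPGK-E went from 579 to 1326 reads, a change of 1.20. Of these 6 clones, 3 had gained and 3 had lost share in culture 2.

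RNA from the same cultures was read in separate libraries and gives a second view of these clones. A clone with more cells adds barcode copies to both DNA and RNA, so a change of cell number alone would move both shares by the same factor. In mPGK-B the RNA reads of the most changed clone fell with its DNA, from 69 to 35, a change of RNA share of -1.20. In mPGK-C they rose from 161 to 235, a change of 0.62. In mPGK-F they rose from 1921 to 2443, a change of 0.34.

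The RNA of the mPGK-E clone rose from 5187 to 6380 reads, a change of 0.25, and that of the mPGK-A clone went from 102 to 84 reads, a change of -0.30. The clone on chromosome X of mPGK-D went the other way, with 243 and 347 RNA reads and a change of 0.41. The RNA change thus had the sign of the DNA change in 5 of the 6 clones, and it was smaller than the DNA change in all 6. The clones were picked for their DNA change, which favours a smaller change in RNA.

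Across clones, the change of RNA share was almost unrelated to the change of DNA share. Over the 12737 clones with at least 200 RNA reads, the slope of the RNA change on the DNA change was 0.0118 ± 0.0162 (SD, n = 6 pools), where a slope of 1 would mean that both moved alike. It was 0.0160 in mPGK-A, -0.00549 in mPGK-B, -0.00779 in mPGK-C, 0.00977 in mPGK-D, 0.0272 in mPGK-E and 0.0312 in mPGK-F. These values did not differ from 0 beyond the spread between pools (exact sign-flip permutation test, two-sided, p = 0.15625), and all lay far below 1. Error in the DNA change lowers such a slope. Read counting made up 2.80% of the DNA variance, and other error was not measured. A change of DNA share between the cultures is therefore not shown to be a change in the number of cells, and the parts of DNA sampling and PCR in it were not tested.

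With at least 2000 RNA reads, which left 4149 clones, the slope was 0.0354 ± 0.0245 and above 0 in 6 of 6 pools (exact sign-flip permutation test, two-sided, p = 0.03125, the smallest that 6 pools can give). The highest pool, mPGK-E, reached 0.0717. In size classes chosen after these values were seen, the slope was 0.0141 ± 0.0350 among clones above the median size and -0.0322 ± 0.107 among the largest 10%.

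The clones that changed most gave the same picture. Of the 12737 clones with at least 200 RNA reads, 674 changed at least 2-fold in DNA, by a median of 1.20 log2 units or 2.30-fold. Their RNA share moved in the same direction in 352 of 674 (52.2%), with a median RNA change of 0.024 toward the DNA change. It moved at least 2-fold in the same direction in 12 and in the opposite direction in 11. Conversely, 232 of the 12737 clones changed at least 2-fold in RNA, and the DNA moved the same way in 113 (48.7%). The limit was set on RNA reads alone, so the counts of 674 and 232 are not compared. Over all 17857 clones, 1293 (7.24%) changed at least 2-fold in DNA.

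**Figure D3:**
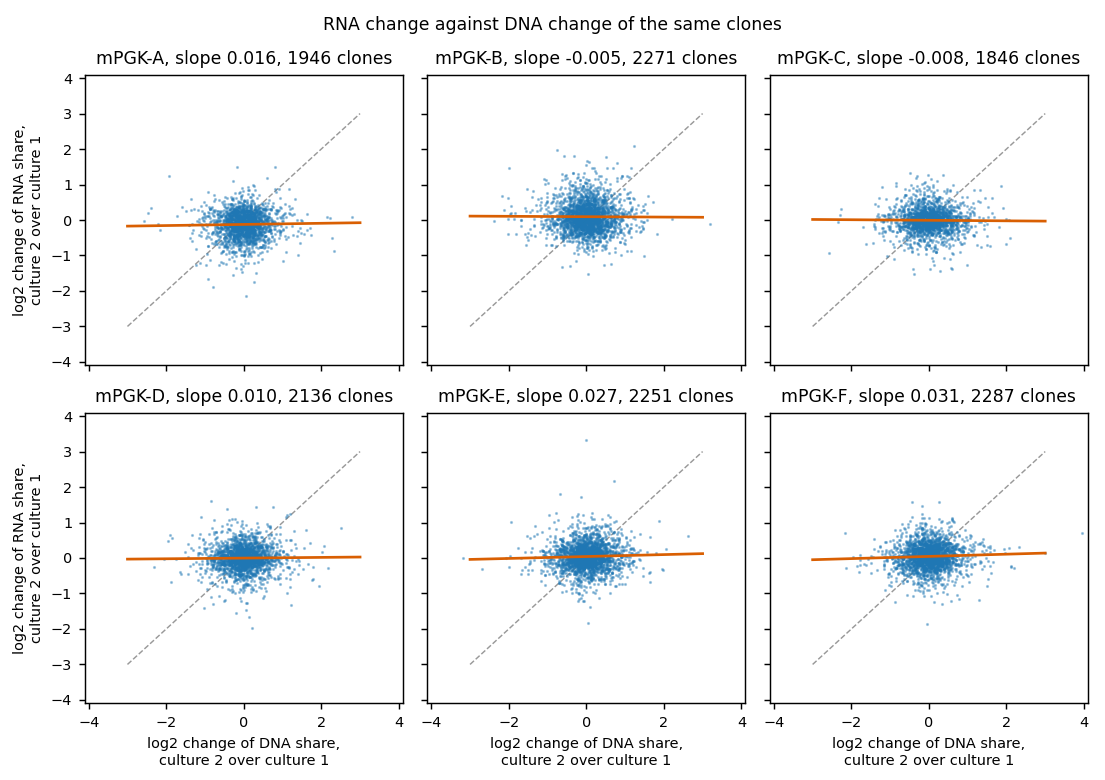
Log2 change of RNA share (vertical axis) against log2 change of DNA share (horizontal axis), culture 2 over culture 1, for clones with at least 200 RNA reads, with 1 panel per pool and 1 point per clone. The solid line is the least-squares fit and the dashed line marks equal change, and the fits are nearly flat, with slopes of -0.00779 to 0.0312.

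In the clones with at least 200 RNA reads the SD of the change was 0.37 ± 0.03 for RNA and 0.49 ± 0.02 for DNA (SD, n = 6 pools). The pools did not overlap, at 0.34 to 0.42 for RNA and 0.47 to 0.52 for DNA. Among those above the median size the SD was 0.33 ± 0.02 for RNA and 0.34 ± 0.02 for DNA, with RNA the higher in mPGK-A and mPGK-B. Among the largest 10% it was 0.28 ± 0.02 for RNA and 0.24 ± 0.01 for DNA, with RNA the higher in all pools but mPGK-D. For the RNA to DNA ratio, which is the usual measure of reporter expression, the change between cultures came for 65.7 ± 3.65% of its variance from DNA and for 35.9 ± 3.26% from RNA, the small remainder being their covariance. In the clones with at least 2000 RNA reads the DNA part was 83.3 ± 11.8%, from 67.2% in mPGK-A to 95.7% in mPGK-C. Among the largest 10% of clones with at least 200 RNA reads it was 41.6 ± 7.65%. The limits on RNA reads favour a small RNA part, and the choice of large clones favours a small DNA part. From the limit of 200 to that of 2000 RNA reads the SD of the change fell from 0.37 to 0.21 for RNA. For DNA it fell from 0.49 to 0.40. The parts therefore hold for these selections and not for all clones.

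The counts of DNA and RNA were also fitted together per clone, with a culture term that both molecules share (quasi-likelihood test of edgeR, adjusted after Benjamini and Hochberg over all 17857 clones). No clone passed an adjusted p of 0.05 (0%), 674 clones (3.77%) had an unadjusted p under 0.05, and the smallest adjusted p was 0.156. DESeq2 also called 0, with 479 at an unadjusted p under 0.05. Each fit had 4 counts and 1 residual degree of freedom per clone, and it compares these cultures only.

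When only the 14738 clones with at least 100 RNA reads were fitted with edgeR, 7 were called, 4 higher and 3 lower in culture 2. The strongest, in mPGK-F, had 21 and 334 DNA reads and 700 and 1142 RNA reads, changes of 3.96 and 0.70 (edgeR, adjusted p = 1.28e-05). The most changed mPGK-F clone on chromosome 10 was among them (edgeR, adjusted p = 0.0348). The call itself favours clones whose DNA and RNA moved the same way. In all 7 the RNA change had the sign of the DNA change and was the smaller, with DNA changes from -2.70 to 3.96 and RNA changes from -0.44 to 0.70.

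Clone size and change between cultures were then set against where the reporter had landed and how strongly it was expressed. Each relation was computed over the clones of a pool, which share their libraries, and the 6 pool values were tested against 0 by an exact sign-flip permutation test (two-sided). The tests formed a family of 4 for size and a family of 4 for change, with Benjamini-Hochberg adjustment. The smallest p that 6 pools can give is 0.03125 in this permutation test. A relation could therefore pass an adjusted p of 0.05 only if most of its family stood at that value. For the change, clones were ranked within 20 size bins of their pool, so that the dependence on size did not enter.

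No relation of clone size passed after adjustment, where the number of pools sets a limit, and all were weak. As local density, the integrations of all pools lying within 100 kb of a clone were counted, and its Spearman rho with clone size was 0.0169 ± 0.0115 (SD, n = 6 pools), above 0 in 6 of 6 pools (exact p = 0.03125, adjusted p = 0.0625). The 3248 clones with no other integration within 100 kb had a median share of 0.0227%, as the mean of the pool medians. It was 0.0235% for the 7325 clones with 1 to 2, 0.0241% for the 6390 with 3 to 6 and 0.0234% for the 894 with 7 or more. The median thus did not rise through all classes. The rho with the GC content of the barcode was 0.0142 ± 0.0116, also above 0 in 6 of 6 pools (exact p = 0.03125, adjusted p = 0.0625). Without the 10% of clones lowest in DNA counts the rho with GC was 0.00837, above 0 in 3 of 6 pools, and that with density was 0.0238, above 0 in 6 of 6. Over all clones, the rho with density was 0.0135 within 10 kb, above 0 in 4 of 6 pools. It was 0.0239 within 1 Mb, above 0 in 6 of 6, and 0.0148 with integrations of the other pools only, above 0 in 5 of 6. The part of barcode GC in the relation with density was not tested.

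Reporters on the X chromosome were carried by 348 clones. They were larger than autosomal clones by 0.05 ± 0.18 log2 units over pools (exact sign-flip permutation test, p = 0.53125, adjusted p = 0.53125). The differences were -0.25 in mPGK-A, 0.27 in mPGK-B, -0.08 in mPGK-C, 0.12 in mPGK-D, 0.13 in mPGK-E and 0.12 in mPGK-F, so the pools did not share a direction. Among the 20 chromosomes without Y, mean clone size relative to the pool mean ranged from -0.12 log2 units on chromosome 16, which was below it in 6 of 6 pools, to 0.13 on chromosome 8, which was above it in 6 of 6. These are the only chromosomes with 1 direction in all pools. Chromosomes were not tested, since with 6 pools an adjustment over 20 of them could be passed only if most stood at the smallest p.

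Clone size did not follow reporter expression beyond the spread between pools. Size was taken from one culture and the log2 RNA to DNA ratio from the other, so that no DNA count stood on both sides. The rho was -0.0140 ± 0.0226, above 0 in 1 of 6 pools (exact sign-flip permutation test, p = 0.1875, adjusted p = 0.25). The value moved with the treatment of low counts. It was -0.0350 with a pseudocount of 5 in place of 0.5 RNA reads (exact permutation test, p = 0.03125, adjusted p = 0.0417). Without clones under 10 RNA reads it was -0.0470 (exact permutation test, p = 0.03125, adjusted p = 0.0625). Both were below 0 in 6 of 6 pools and stood at the smallest p that 6 pools can give. Their adjusted p differed only through the other relations of the family. Without the 10% of clones lowest in DNA counts the value was 0.0105.

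When clones were divided into quintiles of expression, where the ratio averaged over both cultures holds the same DNA counts, the quintile with the highest ratio was smaller than the pool mean in 6 of 6 pools, by 0.12 ± 0.07 log2 units or 1.08-fold. The quintiles 2 and 3, counted from the lowest, were larger than the pool mean in 6 of 6 pools, by 0.08 ± 0.03 and 0.06 ± 0.04. The lowest quintile lay close to the pool mean, at -0.004 ± 0.04, and above it in 5 of 6 pools. Size therefore did not fall steadily from the lowest to the highest ratio. The shared DNA count pulls this comparison downward, and its part was not tested.

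**Figure D4:**
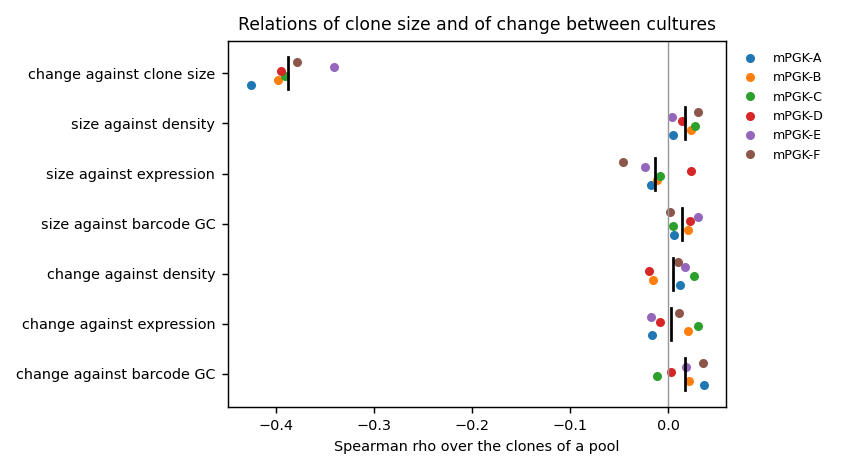
Spearman rho over the clones of a pool (horizontal axis) for 7 relations, with 1 point per pool and a bar at the mean of the 6 pools. Change between cultures falls with clone size in every pool, at -0.426 to -0.341, and the other relations lie between -0.05 and 0.04.

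Weak reporters made up a higher share of the very largest clones than of the next size class. Here weak means an RNA to DNA ratio more than 16-fold below the pool median. With size from culture 1 and the ratio from culture 2, 21 of 176 clones (11.9%) in the largest 1% were weak, against 70 of 1606 (4.36%) at rank 1% to 10%, 408 of 7145 (5.71%) at rank 10% to 50% and 643 of 8930 (7.20%) among the smallest 50%. Over all clones the share was 1142 of 17857 (6.40%). The largest 1% lay above the share of their own pool in 6 of 6 pools, at 14.8% in mPGK-A, 9.68% in mPGK-B, 16.0% in mPGK-C, 12.9% in mPGK-D, 9.68% in mPGK-E and 9.68% in mPGK-F.

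The count was the same in the other order of cultures, which holds largely the same clones and is no second observation. With size from culture 2 and the ratio from culture 1 it was again 21 of 176, above the pool share in 6 of 6 pools, with the lowest at 6.45% in mPGK-F. Each pool value rests on 2 to 4 weak clones of 25 to 31. The median ratio of the largest 1% lay on both sides of the pool median, from -0.99 to 0.52 log2 units. The comparison was chosen after its values were seen, so it is given with no test.

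**Figure D5:**
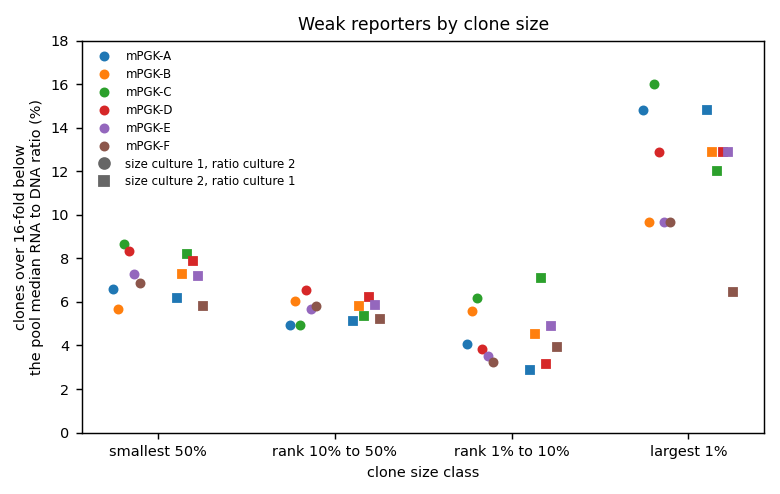
Share of clones in percent whose RNA to DNA ratio was more than 16-fold below the pool median (vertical axis) in 4 classes of clone size (horizontal axis), with 1 point per pool, round for size from culture 1 and square for size from culture 2. In the largest 1% the points lie between 6.45% and 16.0%, and at rank 1% to 10% between 2.86% and 7.08%.

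Change between cultures did not follow position, expression or barcode GC beyond the spread between pools. At a given clone size, the rho of the absolute change with local density was 0.00481 ± 0.0186 (exact sign-flip permutation test, p = 0.53125, adjusted p = 0.708). With reporter expression it was 0.00305 ± 0.0199 (exact permutation test, p = 0.71875, adjusted p = 0.719), and its sign was not the same in all pools. With barcode GC it was 0.0168 ± 0.0187, above 0 in 5 of 6 pools (exact permutation test, p = 0.09375, adjusted p = 0.1875).

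Clones on the X chromosome ranked higher in change by 0.0253 ± 0.0310 on a scale from 0 to 1, in 5 of 6 pools (exact sign-flip permutation test, p = 0.09375, adjusted p = 0.1875). The highest value was 0.0772 in mPGK-A, and without that pool the mean was 0.0150. Mean ranks per chromosome lay between 0.487 on chromosome 4 and 0.528 on X, and no chromosome was on 1 side of 0.5 in all 6 pools. The autosomes together had a mean rank of 0.503, so 0.5 lies slightly below the centre of the ranks. The SD of the change was 0.57 ± 0.08 on X and 0.55 ± 0.02 on the autosomes.

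Neighbouring clones of a pool were not detectably more alike than distant ones. The 529 pairs within 10 kb differed in size by 1.46 ± 0.15 log2 units, and pairs on the same chromosome more than 1 Mb apart by 1.49 ± 0.06 (SD, n = 6 pools). The difference was -0.0294 ± 0.133, below 0 in 3 of 6 pools (exact sign-flip permutation test, p = 0.59375, adjusted p = 0.9375). The mean product of the changes of a pair, divided by the variance of the change, was 0.0045 ± 0.0839 for close and 0.00082 ± 0.00289 for distant pairs, a difference of 0.00373 (exact sign-flip permutation test, p = 0.9375, adjusted p = 0.9375).

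The same barcode sequence occurred in several pools in 506 of 17339 cases, 495 times in 2 pools, 10 times in 3 and once in 4. None of these was at the same position in both pools. Of their 531 pairs of entries, 39 lay on the same chromosome, the closest 130.5 kb apart. So no integration was listed in more than 1 pool, and each pool's clones were separate insertions. The 1024 entries were smaller than the other clones of their pool by 0.07 ± 0.10 log2 units, with 2 of 6 pools above 0 (exact sign-flip permutation test, p = 0.15625).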

How the data were processed

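The authors deposited, in 1 table, unnormalized read counts of every barcode in DNA and in RNA of each culture with mm9 positions, per the file headers. Per the submitters' processing notes, Bowtie2 2.0 was used with mm9. Not given in the sources used here are how the PCRs were combined, which barcodes were kept, and whether positions start at 0 or 1.

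Shares are percentages of the listed reads of a pool and culture, not of whole libraries. Change is the log2 ratio of shares, culture 2 over culture 1. Expression is log2 of the RNA share over the DNA share, with a pseudocount of 0.5 RNA reads. The counting SD assumes independent reads. Pools, not clones, are the units of the sign-flip tests (64 patterns). Their threshold was an adjusted p of 0.05.

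Named clones are the largest of each pool and the most changed above each pool's median share. The rule for named clones also asked for barcodes listed at 1 position in several pools, and there were none. The members, lists and tests were chosen with earlier results of these data known. Alternatives were filters on DNA and RNA reads, scaling, pseudocounts, windows, other count tests, and leaving out cultures or pools.

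Tools were Python 3.11.15, numpy 2.4.6, scipy 1.17.1 and pandas 2.3.3, and edgeR 4.0.16 (TMM, additive terms for molecule and culture within a pool) and DESeq2 1.42.0 in R 4.3.3. The RNA slope, the relation of size with density and the joint edgeR test were tried on simulated data, and the other relations were not. In the slope simulation the DNA counts held no error beyond read counting.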

Additional observations from a re-analysis of the deposited data

Results flagged for a closer look

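The largest clone of mPGK-C, on chromosome 7, held 1.35% of the pool's DNA reads, while the largest clones of the other 5 pools held 0.263% to 0.633%. Its gap to the nearest pool was 0.660 of the whole range, above the limit of 0.625 for 6 values. It was the only one of 22 sets of pool values with such a gap, and chance alone gives about 1 in 20. The clone held a large share in both cultures, 1.47% and 1.23%, with 16 and 33 RNA reads.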

How the results depend on the processing

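Of 187 alternative values over 17 results, 167 kept their direction and, where there was a test, their call, 12 changed sign, 5 moved and 3 passed the threshold. The fall of the change with clone size kept p = 0.03125 in the exact permutation test under all 4 alternatives with 6 pools, at -0.388 to -0.345. Read counting alone gives this sign, so its stability is no separate support. Values with a pool left out make up a large part of these alternatives and share their 5 pools with the main result. They were not tested, since 5 pools cannot go below 0.0625.

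Leaving out the lowest 10% of DNA counts gave an SD of the change of 0.49, 828 clones changed at least 2-fold, a rho of size with expression of 0.0105 and a likeness of change in close pairs of -0.0159. The last was -0.000381 without clones under 200 DNA reads. A limit of 1.5-fold gave 4089 changed clones. Size against expression was -0.0350 with a pseudocount of 5 and -0.0508 with the ratio from the same culture. Change against expression was -0.00122 without barcodes of several pools and -0.000378 with the change divided by its counting SD. The RNA slope was 0.0354 with at least 2000 RNA reads. The size difference of close pairs was 0.00888 within 100 kb. The joint test called 1 clone with RLE scaling and 7 with at least 100 RNA reads. Leaving out 1 pool at a time gave -0.00234 to 0.00712 for change against expression, -0.0689 to 0.00421 for the size difference of close pairs and -0.0130 to 0.0326 for their likeness of change. The causes were not tested.

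No paired analysis was possible because the replicate numbers are the 2 cultures being compared, so a replicate block would remove the comparison. Leaving out a culture ends every comparison of cultures, and the sizes of either culture alone gave the same calls. Read depth sets a counting SD of 0.18 in the smallest size decile and 0.034 in the largest. Clones below the listed counts, and error within a culture, were not measured.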
